A study of Mus musculus with 51 samples.

Results

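Egr1, Egr2, Egr3, Nr4a1, Nr4a2, Nr4a3, Btg2 and Ier2 are immediate early genes, and their RNA was followed in inflamed mouse neutrophils and in cultured neutrophil lines treated with zymosan, a yeast cell wall particle. The 8 genes were taken by name from the 50600 genes counted, after matching Ensembl gene IDs to symbols. The rule uses no measured value, but the genes were chosen with earlier results of these data known. All 8 had counts in the cultured cells, where all passed the filter on low counts in every table. In the tissues 7 of the 8 passed, and Egr3 did not.

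The study set neutrophils that had entered an inflamed air pouch beside those still in blood and bone marrow, and examined transcription factors in a cell line. In mice carrying CX3CR1GFP and Ly6GCre-tdTomato alleles, a pouch of 6 days was injected with 100 µg zymosan, and neutrophils were sorted 4 h later. RNA libraries came from the pouch exudate (5), the pouch membrane (2), blood (5) and bone marrow (3), all of zymosan-challenged mice, and accessible chromatin was profiled in 8 libraries of 75000 Ly6G+ cells. ER-Hoxb8 neutrophils come from progenitors kept immature by an estrogen-controlled Hoxb8, and here were matured for 5 days without estrogen and with G-CSF, then given zymosan (50 µg/ml) or the vehicle DMSO for 2 h, with 2 libraries per group. Set 1 held cells labelled CEBPB-/-, JUNB-/- and wild type (WT), set 2 held cells labelled IRF5-/-, RELB-/- and WT, and cells labelled RUNX1-/- and KLF6-/- were given DMSO only and were set against the DMSO libraries of WT set 2. The labels do not say whether a line is 1 clone, whether replicate libraries came from separate cultures, or how many mice a tissue library holds, so p-values measure only the spread between these libraries. The age and sex of the mice are not given. Columns of the tissue table could be tied to a tissue but not to a replicate number of the labels, so its libraries are numbered in table order. Their headers also carry a tag, 100 or 300, that the labels do not explain. Tag 100 stands on 2 exudate, 3 blood and all 3 bone marrow libraries, and tag 300 on 3 exudate, both membrane and 2 blood libraries, so no tag holds both membrane and bone marrow.

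The targeted transcripts were read first, as counts scaled to library size (CPM) with DMSO. Cebpb had 537 and 510 CPM in the cells labelled CEBPB-/-, against 479 and 536 CPM in WT. Junb had 486 and 511 CPM in the cells labelled JUNB-/-, against 851 and 948 CPM in WT. Irf5 had 81.0 and 81.8 CPM in the cells labelled IRF5-/-, against 95.74 and 101.4 CPM in WT, and Relb had 68.3 and 67.5 CPM in the cells labelled RELB-/-, against 168 and 172 CPM in WT. Runx1 had 156 and 152 CPM in the cells labelled RUNX1-/-, against 59.3 and 61.5 CPM in WT, and Klf6 had 851 and 852 CPM in the cells labelled KLF6-/-, against 622 and 638 CPM in WT. With zymosan Cebpb had 2880 and 2190 CPM in the cells labelled CEBPB-/-, against 1071 and 938 CPM in WT (log2 difference 1.34 ± 0.06), and the log2 differences were -0.12 ± 0.04 for Junb, -0.31 ± 0.04 for Irf5 and -0.30 ± 0.02 for Relb in their lines. All 6 transcripts were thus present in their lines, and Runx1 and Klf6 with DMSO and Cebpb with zymosan were higher there than in WT. Counts over a whole gene do not show whether a part of it was deleted, so the lines are called CEBPB-labelled, JUNB-labelled and so on.

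Immediate early genes are transcribed within minutes of a stimulus from promoters that kinase-activated factors already occupy, among them SRF at CArG boxes and CREB at cyclic AMP response elements (CREs), and their RNAs are short-lived. EGR1, EGR2 and EGR3 are zinc finger transcription factors that bind GC-rich sites. NR4A1, NR4A2 and NR4A3 are orphan nuclear receptors that bind the NBRE sequence without a known natural ligand being required. BTG2 restrains proliferation and couples mRNAs to the CCR4-NOT deadenylase, and IER2 is a nuclear protein of the growth factor response. In macrophages and neutrophils, NR4A genes are known targets of inflammatory signals, and NR4A1 and NR4A3 are known to limit inflammation in myeloid cells.

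The stretches upstream of the starts of Btg2, Nr4a2, Nr4a3, Nr4a1 and Egr2 are shown because they hold motifs for CREB or SRF inside chromatin that was accessible in the sorted neutrophils. They are from RefSeq, build GRCm38.p6 (mm10), are written 5′ to 3′ on the strand given, and lie outside annotated exons. Capitals mark TGACG, the core of a CRE, on either strand (CGTCA on the other), and in Egr2 also a CArG box.
Btg2 chr1:134079271-134079370 (minus strand): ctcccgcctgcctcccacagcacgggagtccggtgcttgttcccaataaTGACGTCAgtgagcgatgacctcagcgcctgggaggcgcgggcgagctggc
Nr4a2 chr2:57124105-57124208 (minus strand): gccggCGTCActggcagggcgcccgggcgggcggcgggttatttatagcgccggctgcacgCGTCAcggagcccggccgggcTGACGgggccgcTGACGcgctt
Nr4a3 chr4:48045055-48045152 (plus strand): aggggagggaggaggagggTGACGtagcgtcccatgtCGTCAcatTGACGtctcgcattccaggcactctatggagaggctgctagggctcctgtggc
Nr4a1 chr15:101266601-101266650 (plus strand): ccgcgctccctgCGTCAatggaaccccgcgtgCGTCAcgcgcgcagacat
Nr4a1 chr15:101266767-101266816 (plus strand): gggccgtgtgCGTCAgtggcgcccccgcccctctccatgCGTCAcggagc
Egr2 chr10:67537793-67537822 (plus strand): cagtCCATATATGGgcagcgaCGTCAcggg
In Btg2 the capitals form the whole palindromic CRE, TGACGTCA, at positions -166 to -159 from the transcript start. This element, which holds a TGACG on each strand, was found in 1.55% of 32851 promoter windows of 250 bp. Nr4a2, Nr4a3 and Nr4a1 had 4 TGACG cores each within 250 bp, and Egr2 had 2 upstream of the RefSeq start nearest to them. Of these cores 3 are shown for Nr4a3 and 1 for Egr2. A core was found in 17.8% of all windows. The printed CArG box of Egr2 lay at -72 to -63, and such a box was found in 1.47% of windows. Another CArG box of Egr2, not printed, lay at -72 to -63 from a different RefSeq start, chr10:67537566. None of the windows of these 5 genes held the letters TGANTCA (AP-1, 6.75% of windows), GCGTGGGCG (EGR, 0.536%) or AAAGGTCA (NBRE, 1.34%), with both strands searched throughout. Egr1, Egr3 and Ier2 are named only.

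RNA of every member was higher after 2 h of zymosan in every line that received it with TMM scaling, which evens out most genes between libraries, while scaling to total counts turned Egr1 in WT set 1 and Ier2 in WT set 1 and in CEBPB-labelled cells. In WT cells the NR4A genes and Egr3 changed most, Btg2 and Egr2 by a smaller factor, and Egr1 and Ier2 least and unequally between the WT sets. With edgeR's quasi-likelihood test and a Benjamini-Hochberg adjusted p under 0.05, 8 of 8 members were called higher in WT set 1, where 35.7% of all tested genes were, and 8 of 8 in WT set 2, where 36.3% were. The median log2 change of the members was 1.97 in WT set 1 and 1.76 in WT set 2, beside medians over all genes of -0.0672 and 0.0486.

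Among the NR4A receptors, Nr4a3 had 1678 and 1735 CPM in zymosan-treated WT set 1 cells, against 13.8 and 14.4 CPM with DMSO. It had 1375 and 1376 CPM with zymosan in WT set 2, against 24.8 and 25.0 CPM with DMSO. These log2 changes of 6.92 ± 0.05 and 5.79 ± 0.03 (approximate SE from the test statistic) ranked 52 of 12899 and 48 of 13779 genes by size. Nr4a1, also called Nur77, had 1742 and 1734 CPM with zymosan in WT set 1, against 46.4 and 48.0 CPM with DMSO, a log2 change of 5.20 ± 0.04. In WT set 2 it had 2019 and 2003 CPM with zymosan, against 179 and 171 CPM with DMSO, a log2 change of 3.52 ± 0.02. The Nr4a1 levels with zymosan were close in the WT sets, while its DMSO levels were several-fold apart. Nr4a2, the scarcest of the receptors, had 75.0 and 75.9 CPM with zymosan in WT set 1, against 1.25 and 1.18 CPM with DMSO, a log2 change of 5.95 ± 0.10. WT set 2 had 23.3 and 22.8 CPM with zymosan, against 3.19 and 2.96 CPM with DMSO, a log2 change of 2.91 ± 0.11. No zymosan library overlapped a DMSO library for any of these 3 genes, though groups of 2 libraries often separate. The share of all genes that did so is not given here.

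Among the EGR factors, Egr3 had 209.0 and 208.9 CPM with zymosan in WT set 1, against 36.1 and 42.4 CPM with DMSO, and 236 and 221 CPM with zymosan in WT set 2, against 53.9 and 56.4 CPM with DMSO. The log2 changes were 2.42 ± 0.05 and 2.05 ± 0.03. Egr2, which is needed for Schwann cell myelination and acts in lymphocyte tolerance, had 136 and 140.0 CPM with zymosan in WT set 1, against 59.6 and 60.03 CPM with DMSO. WT set 2 had 90.9 and 91.4 CPM with zymosan, against 36.9 and 37.9 CPM with DMSO. Its log2 changes of 1.21 ± 0.05 and 1.28 ± 0.05 were nearly equal. Egr1, the best known of the family, had 321 and 332 CPM with zymosan in WT set 1, against 274 and 282 CPM with DMSO, a log2 change of 0.23 ± 0.04 (edgeR adjusted p = 8.57e-08) that turned to -0.47 with scaling to total counts. Egr1 in WT set 2 had 171 and 168 CPM with zymosan, against 83.9 and 79.5 CPM with DMSO, a log2 change of 1.05 ± 0.03. Egr1 was thus already high with DMSO in WT set 1.

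Btg2 had 714 and 715 CPM with zymosan in WT set 1, against 254 and 245 CPM with DMSO, and 967 and 965 CPM with zymosan in WT set 2, against 348.2 and 348.1 CPM with DMSO. Its log2 changes were 1.52 ± 0.03 and 1.47 ± 0.02. Ier2 had 293 and 279 CPM with zymosan in WT set 1, against 264 and 276 CPM with DMSO. That log2 change of 0.08 ± 0.04 only just passed the test (edgeR adjusted p = 0.0477) and was -0.62 with scaling to total counts. It no longer passed without the filter on low counts (0.03), without WT set 1 DMSO replicate 1 (0.07) or without zymosan replicate 1 (0.05). Ier2 in WT set 2 had 477 and 460 CPM with zymosan, against 209 and 207 CPM with DMSO, a log2 change of 1.17 ± 0.02.

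**Figure D1:**
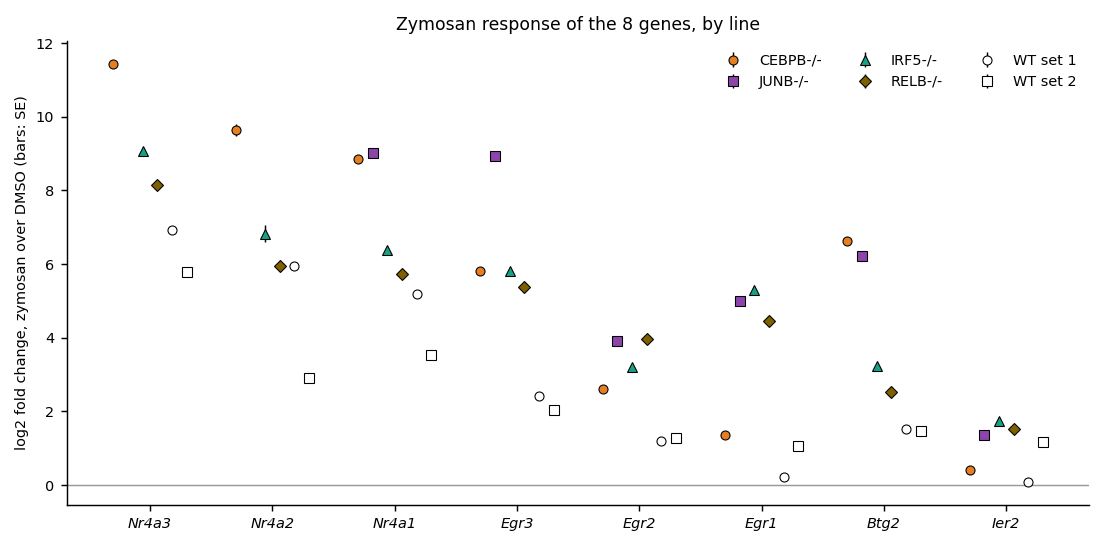
Log2 change of each member with zymosan over DMSO, by line, with bars for the approximate SE from edgeR and 2 libraries per group. The 3 NR4A genes lie highest in most lines, Ier2 lies lowest except in WT set 2, where Egr1 does, and points of Nr4a2 and Nr4a3 in JUNB-/- cells are left out because their DMSO libraries held 3 and 1 counts.

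Scaling to total counts lowered the median of all genes in the zymosan comparisons of the lines, to between -0.688 and -1.02 on the log2 scale. In WT set 1 the calls over all genes were 4608 higher and 5143 lower with TMM scaling, and 2418 higher and 8261 lower with total counts. In WT set 2 they were 4997 higher and 4421 lower, and 1830 higher and 9365 lower with total counts. With total counts 6 members were called higher and 2 lower in WT set 1 (Egr1 and Ier2), and 8 higher in WT set 2.

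Between genes, levels were compared per kilobase of summed exon length (RPKM). With DMSO Ier2 had the highest level of the 8 in every line, with 177 ± 5.73 RPKM in WT set 1 and 137 ± 0.778 RPKM in WT set 2 (SD, n = 2). With zymosan Nr4a1 had the highest level in every line, with 702 ± 2.26 RPKM in WT set 1 and 813 ± 4.60 RPKM in WT set 2. Nr4a2 had the lowest level in every zymosan group, 18.6 ± 0.163 RPKM in WT set 1 and 5.68 ± 0.0891 RPKM in WT set 2. The order thus differed between treatments at its top.

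Other immediate early genes, a list of 30 of which 29 were tested, moved alongside. Of these, 25 rose and 3 fell in WT set 1 (median log2 change 2.03), and 25 rose and 4 fell in WT set 2 (1.86). In WT set 1 Plk2, a polo-like kinase, changed by 5.50 on the log2 scale, Dusp2, a phosphatase of MAP kinases, by 5.39, Fosl1, an AP-1 subunit, by 5.16, and Maff, a small bZIP factor, by 4.77. In WT set 2 Myc changed by 5.22, Fosl1 by 4.59, Plk2 by 4.36 and Maff by 4.27. The members' median thus lay near that of the other immediate early genes.

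Counts in the regulator lists are read against all genes, of which 35.7% were called higher and 39.9% lower in WT set 1, and 36.3% and 32.1% in WT set 2. Of 16 genes for SRF and the ERK pathway, 9 rose and 5 fell in WT set 1, and 9 rose and 4 fell in WT set 2. Map3k8, the kinase that drives ERK downstream of pattern receptors, rose by 2.68 and 2.84 on the log2 scale in sets 1 and 2, and Srf rose by 1.90 and 1.44. Mrtfa, a coactivator of SRF, had log2 changes of -2.29 and -2.70. Of 10 genes of the CREB pathway, 4 rose and 6 fell in each set. Crem, which encodes activators and repressors at CREs, rose by 2.80 and 2.74, and the coactivator Crtc2 rose by 1.47 and 1.80, while Prkaca, a catalytic subunit of protein kinase A, had log2 changes of -1.35 and -0.81.

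Of 4 tested partners of EGR and NR4A proteins, 3 rose and 1 fell in WT set 1, and 2 rose and 1 fell in WT set 2. Nab2, a corepressor of EGR factors, had a mean of 259 ± 19.9 CPM with zymosan and 83.9 ± 3.01 CPM with DMSO in WT set 1, and 704 ± 1.27 CPM with zymosan and 209 ± 0.835 CPM with DMSO in WT set 2 (SD, n = 2). Nab1 rose by 1.47 and 1.21 on the log2 scale in sets 1 and 2, and Rxrb, a heterodimer partner of NR4A1 and NR4A2, had log2 changes of -1.28 and -1.60. Of 9 tested partners of BTG2 in deadenylation, 6 rose and 3 fell in WT set 1, and 5 rose and 3 fell in WT set 2. Cnot7, the deadenylase subunit that BTG2 binds, rose by 1.25 and 1.94.

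Summed CPM of 6 dendritic cell markers, mostly Cd74, was also higher with zymosan, 213 to 214 in WT set 1 and 273 in both libraries of WT set 2, against 71.2 to 71.7 and 64.5 to 65.8 with DMSO. The sum of 8 neutrophil markers was 19000 to 19400 with zymosan in WT set 1, against 23100 to 24900 with DMSO, and 58800 to 60100 with zymosan in WT set 2, against 44300 to 46400 with DMSO. Their part in the members' change was not tested.

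The response differed between the WT sets for 7 members, tested as an interaction in 1 fit of both sets. It was higher in WT set 1 for 5 members (background 22.3%), lower there for Ier2 and Egr1 (16.4%), and not called for Egr2 (0.06 ± 0.06, edgeR adjusted p = 0.498). The log2 differences, set 1 minus set 2, were 3.18 ± 0.17 for Nr4a2, 1.82 ± 0.05 for Nr4a1, 1.27 ± 0.07 for Nr4a3, 0.50 ± 0.07 for Egr3 and 0.19 ± 0.05 for Btg2, and -0.95 ± 0.05 for Ier2 and -0.68 ± 0.05 for Egr1. That of Btg2 was no longer called without WT set 1 DMSO replicate 2 (0.05), WT set 2 DMSO replicate 1 (0.08) or WT set 2 DMSO replicate 2 (0.09). Set, sequencing and culture cannot be told apart here, so the lines of sets 1 and 2 were set only against the WT of their own set. RUNX1- and KLF6-labelled cells had no WT of their own and were set against the DMSO libraries of WT set 2. There, line cannot be told apart from sequencing or culture.

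With DMSO, the members were far lower in most lines than in WT. Over 6 lines and 8 members, 45 of 48 differences were called lower, 2 higher and 1 not called. By line, 7 of 8 were lower in CEBPB-labelled cells (background 36.9%), 8 in JUNB-labelled (41.1%), 8 in IRF5-labelled (29.6%), 8 in RELB-labelled (27.3%), 6 in RUNX1-labelled (37.1%) and 8 in KLF6-labelled cells (35%). The members' median log2 differences were -3.24, -4.41, -2.63, -2.54, -1.68 and -1.22 in that order, beside all-gene medians between -0.117 and 0.0436. CEBPB-labelled and JUNB-labelled cells share the WT set 1 libraries, and the other 4 lines share the DMSO libraries of WT set 2.

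**Figure D2:**
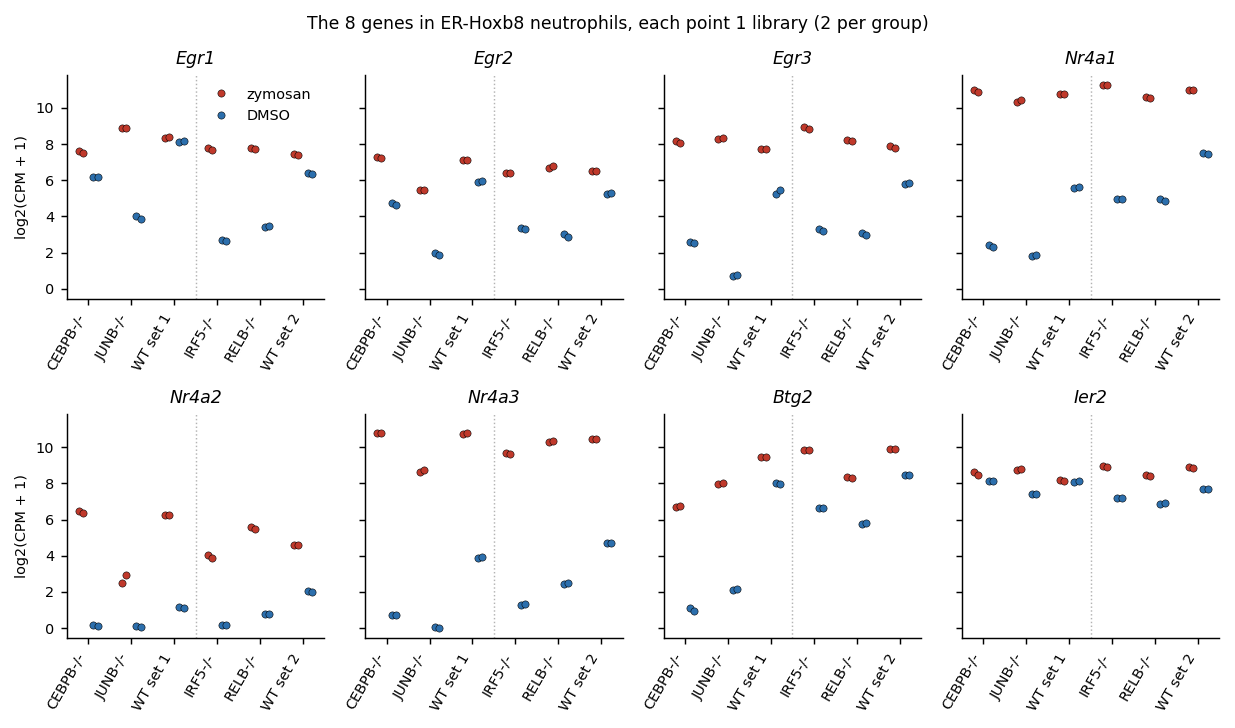
CPM of each member in every ER-Hoxb8 library of sets 1 and 2, on a log2(CPM + 1) axis, by line and treatment. With DMSO most members spread widely below WT, and with zymosan the lines lie closer together, though Btg2 stays lower in 3 lines and Nr4a2, Nr4a3 and Egr2 stay lower in JUNB-/- cells.

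Btg2 was low with DMSO in both labelled lines of set 1. It had 1.18 and 0.924 CPM with DMSO in CEBPB-labelled cells and 3.32 and 3.45 CPM in JUNB-labelled cells, against 254 and 245 CPM in WT set 1. The log2 differences were -7.88 ± 0.08 and -6.20 ± 0.06. It had 96.6 and 98.8 CPM in IRF5-labelled cells and 53.8 and 55.6 CPM in RELB-labelled cells, against 348.2 and 348.1 CPM in WT set 2, with log2 differences of -1.83 ± 0.03 and -2.67 ± 0.03. No library of these lines overlapped one of WT, though with 2 libraries per group this is a weak criterion, and its share over all genes is not given here.

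Nr4a3 had 0.640 and 0.650 CPM with DMSO in CEBPB-labelled cells, against 13.8 and 14.4 CPM in WT set 1, a log2 difference of -4.44 ± 0.13. In JUNB-labelled cells it had a single read pair in 1 of the 2 libraries, against 1149 in WT set 1, a ratio of 0.00125 with a 95% counting interval of 3.16e-05 to 0.00697. It had 1.39 and 1.55 CPM in IRF5-labelled cells and 4.48 and 4.60 CPM in RELB-labelled cells, against 24.8 and 25.0 CPM in WT set 2, with log2 differences of -4.08 ± 0.08 and -2.46 ± 0.06. Nr4a3 was thus low with DMSO in every line and nearly absent in JUNB-labelled cells. Nr4a1 had 4.35 and 4.00 CPM in CEBPB-labelled and 2.52 and 2.60 CPM in JUNB-labelled cells, against 46.4 and 48.0 CPM in WT set 1. It had 30.0 and 29.7 CPM in IRF5-labelled and 29.8 and 27.4 CPM in RELB-labelled cells, against 179 and 171 CPM in WT set 2. Its log2 differences over these 4 lines ran from -4.20 ± 0.08 in JUNB-labelled to -2.55 ± 0.03 in IRF5-labelled cells. Nr4a2 had 0.135 and 0.0684 CPM in CEBPB-labelled cells, against 1.25 and 1.18 CPM in WT set 1, a log2 difference of -3.52 ± 0.43. In JUNB-labelled cells 3 read pairs stood against 99 in WT set 1, a ratio of 0.0435 with a 95% counting interval of 0.00881 to 0.131. In set 2 Nr4a2 had log2 differences of -4.58 ± 0.30 in IRF5-labelled and -2.08 ± 0.20 in RELB-labelled cells.

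Egr1 had 72.3 and 71.6 CPM with DMSO in CEBPB-labelled and 15.5 and 13.6 CPM in JUNB-labelled cells, against 274 and 282 CPM in WT set 1. It had 5.47 and 5.30 CPM in IRF5-labelled and 9.79 and 9.90 CPM in RELB-labelled cells, against 83.9 and 79.5 CPM in WT set 2. Its log2 differences over these 4 lines ran from -4.25 ± 0.05 in JUNB-labelled to -1.95 ± 0.04 in CEBPB-labelled cells. Egr3 had 5.09 and 4.79 CPM in CEBPB-labelled and 0.638 and 0.668 CPM in JUNB-labelled cells, against 36.1 and 42.4 CPM in WT set 1, with log2 differences of -2.99 ± 0.08 and -5.90 ± 0.13. In set 2 its log2 differences were -2.72 ± 0.06 in IRF5-labelled and -2.95 ± 0.06 in RELB-labelled cells. Over these 4 lines Egr2 fell least in CEBPB-labelled cells (-1.27 ± 0.05) and most in JUNB-labelled cells (-4.40 ± 0.08), where it had 2.99 and 2.63 CPM, against 59.6 and 60.03 CPM in WT set 1. Ier2 moved least of the members over these 4 lines. It had 169 and 171 CPM in JUNB-labelled cells, against 264 and 276 CPM in WT set 1 (-0.67 ± 0.04), and was not called in CEBPB-labelled cells (0.05 ± 0.04, edgeR adjusted p = 0.214), where scaling to total counts gave -0.30 and leaving out WT set 1 DMSO replicate 2 gave a call at 0.11.

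RUNX1-labelled cells had a mixed pattern with DMSO. Egr2 had 106.5 and 106.7 CPM in RUNX1-labelled cells, against 54.8 and 56.1 CPM in WT, and Nr4a2 had 7.93 and 6.38 CPM, against 4.73 and 4.38 CPM in WT. These were the only members called higher than WT with DMSO in any line (0.94 ± 0.04 and 0.65 ± 0.14 on the log2 scale, background 38.2%). Btg2 had 64.0 and 67.3 CPM in RUNX1-labelled cells, against 517 and 515 CPM in WT (-2.97 ± 0.03), and Egr1 had 19.3 and 19.4 CPM, against 124 and 118 CPM in WT (-2.64 ± 0.05). In KLF6-labelled cells Btg2 had 471 and 476 CPM, against 517 and 515 CPM in WT (-0.12 ± 0.02), and Ier2 had 280 and 270 CPM, against 310 and 307 CPM in WT (-0.17 ± 0.03). Egr1 had 17.6 and 19.6 CPM in KLF6-labelled cells, against 124 and 118 CPM in WT (-2.70 ± 0.05). The remaining log2 differences in KLF6-labelled cells lay between -1.74 ± 0.06 for Egr3 and -0.62 ± 0.03 for Nr4a1.

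**Figure D3:**
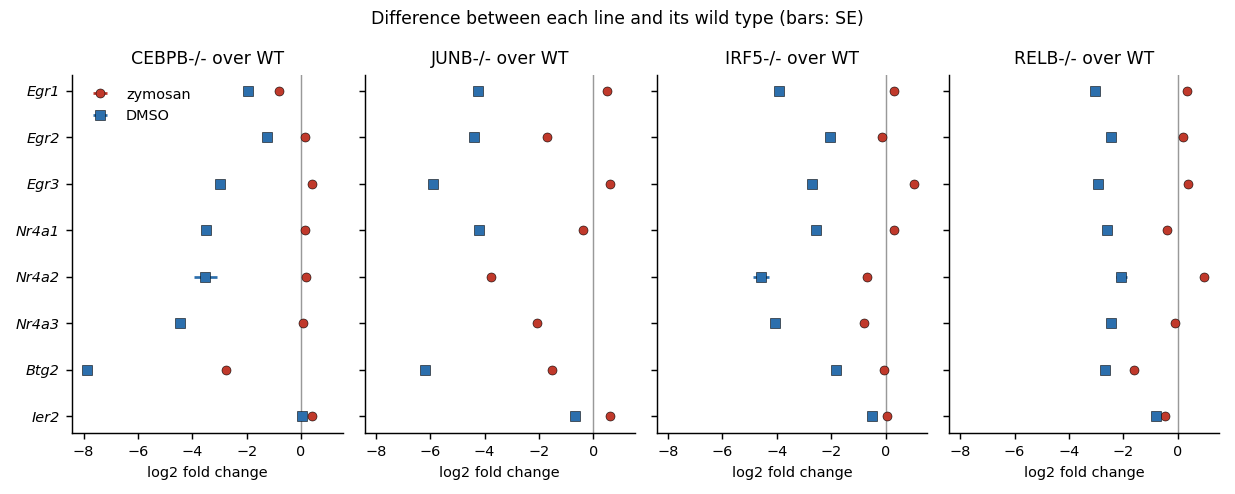
Log2 difference of each member between a labelled line and its WT, with DMSO and with zymosan, with bars for the approximate SE and 2 libraries per group. With DMSO nearly all points lie below 0, and with zymosan they lie on both sides, Nr4a2 and Nr4a3 of JUNB-/- cells with DMSO being left out because they rest on 3 and 1 counts.

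Beside the low members, other immediate early genes were also mostly lower with DMSO, 21 of 29 in CEBPB-labelled, 24 in JUNB-labelled, 26 in IRF5-labelled, 27 in RELB-labelled, 21 in RUNX1-labelled and 23 in KLF6-labelled cells. The summed CPM of 6 eosinophil and mast cell markers moved with the line as well, with 517 to 538 in CEBPB-labelled and 222 to 227 in JUNB-labelled cells, against 1640 in both libraries of WT set 1. It was 651 to 658 in IRF5-labelled and 427 to 435 in RELB-labelled cells, against 3470 to 3540 in WT set 2, and 781 to 798 in RUNX1-labelled and 624 to 635 in KLF6-labelled cells, against 5140 to 5250 in WT set 2 under the scaling of that fit. Summed CPM of 8 neutrophil markers was 52000 to 53200 in CEBPB-labelled and 64000 to 70900 in JUNB-labelled cells, against 23100 to 24900 in WT set 1, and 17300 to 17600 in RUNX1-labelled and 75200 to 79500 in KLF6-labelled cells, against 65500 to 68800 in WT set 2. It was 56800 to 58900 in IRF5-labelled and 46200 to 46600 in RELB-labelled cells, against 44300 to 46400 in WT set 2. The sum of 9 monocyte and macrophage markers was 1240 to 1250 in CEBPB-labelled and 859 to 861 in JUNB-labelled cells, against 1370 to 1400 in WT set 1, and 642 to 644 in IRF5-labelled and 845 to 847 in RELB-labelled cells, against 1040 to 1050 in WT set 2. It was 1840 to 1850 in RUNX1-labelled and 1230 in both KLF6-labelled libraries, against 1540 to 1560 in WT set 2. The sum of 6 dendritic cell markers was 58.2 to 59.2 in CEBPB-labelled and 2.41 to 2.52 in JUNB-labelled cells, against 71.2 to 71.7 in WT set 1. It was 19.7 to 20 in IRF5-labelled and 7.83 to 8.6 in RELB-labelled cells, against 64.5 to 65.8 in WT set 2, and 325 in both RUNX1-labelled libraries and 22.1 to 22.2 in KLF6-labelled cells, against 95.7 to 97.4 in WT set 2. Among these markers Mcpt4 was at 0 in every labelled line, and Prg2 and Epx made up most of the eosinophil and mast cell sum. In such bulk libraries fewer cells of a type and less RNA per cell cannot be told apart. The part of these shifts in the low members was not tested.

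With scaling to total counts 8 of 8 members were lower with DMSO in CEBPB-labelled and in JUNB-labelled cells. The calls over all genes were then 2209 higher and 7278 lower in CEBPB-labelled cells, beside 4336 higher and 4764 lower with TMM scaling. In JUNB-labelled cells they were 2156 higher and 8400 lower, beside 4560 higher and 5299 lower. In IRF5-labelled cells they were 3719 higher and 4947 lower, beside 4827 higher and 4072 lower. In RUNX1-labelled cells they were 7728 higher and 3063 lower, beside 5202 higher and 5042 lower, and in KLF6-labelled cells 3090 higher and 6124 lower, beside 4244 higher and 4767 lower. The members' split in RUNX1-labelled cells was 2 higher and 6 lower under both scalings.

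With zymosan the members lay on both sides of WT in the 4 lines that received it. Over 4 lines, 15 of 32 differences were called higher, 15 lower and 2 not called. In CEBPB-labelled cells 5 members were higher and 2 lower, with backgrounds of 35% and 32.9%. In JUNB-labelled cells 3 were higher and 5 lower (39.1% and 37.4%), in IRF5-labelled cells 3 higher and 4 lower (29.6% and 30.8%), and in RELB-labelled cells 4 higher and 4 lower (27.1% and 28.9%). The median log2 difference of the members was 0.149 in CEBPB-labelled, -0.949 in JUNB-labelled, -0.0128 in IRF5-labelled and 0.0508 in RELB-labelled cells, beside all-gene medians between -0.0345 and -0.00841.

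Marker sums also differed between lines with zymosan. The sum of 6 eosinophil and mast cell markers was 574 to 588 CPM in CEBPB-labelled and 233 to 238 CPM in JUNB-labelled cells, against 1380 to 1450 CPM in WT set 1. It was 1040 to 1060 CPM in IRF5-labelled and 595 to 601 CPM in RELB-labelled cells, against 5510 to 5530 CPM in WT set 2. The sum of 6 dendritic cell markers was 512 to 515 CPM in CEBPB-labelled and 147 to 156 CPM in JUNB-labelled cells, against 213 to 214 CPM in WT set 1. It was 399 to 409 CPM in IRF5-labelled and 130 to 132 CPM in RELB-labelled cells, against 273 CPM in both libraries of WT set 2. Neutrophil markers summed to 41400 to 42200 CPM in CEBPB-labelled and 74300 to 77200 CPM in JUNB-labelled cells, against 19000 to 19400 CPM in WT set 1, and to 84500 to 86000 CPM in IRF5-labelled and 64000 to 64200 CPM in RELB-labelled cells, against 58800 to 60100 CPM in WT set 2. Their part in the members' differences was not tested.

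Egr3 was higher than WT with zymosan in all 4 lines. It had 290 and 263 CPM in CEBPB-labelled and 312 and 327 CPM in JUNB-labelled cells, against 209.0 and 208.9 CPM in WT set 1, and 485 and 463 CPM in IRF5-labelled and 297 and 292 CPM in RELB-labelled cells, against 236 and 221 CPM in WT set 2. The log2 differences were 0.40 ± 0.05, 0.61 ± 0.04, 1.05 ± 0.03 and 0.37 ± 0.03, and with total counts the value in CEBPB-labelled cells was -0.18 and that in JUNB-labelled cells 0.09 and not called. Btg2 was lower than WT in all 4 lines. It had 104 and 106 CPM in CEBPB-labelled and 247 and 255.3 CPM in JUNB-labelled cells, against 714 and 715 CPM in WT set 1, and 324 and 309.8 CPM in RELB-labelled cells, against 967 and 965 CPM in WT set 2. Its log2 differences there were -2.77 ± 0.04, -1.51 ± 0.04 and -1.61 ± 0.02. In IRF5-labelled cells it had 923 and 914 CPM, a difference of -0.07 ± 0.02 that was not called with RLE scaling or DESeq2 (-0.02 each) or without IRF5 zymosan replicate 1 (-0.06) or 2 (-0.03) or WT set 2 zymosan replicate 1 (-0.05) or 2 (-0.04).

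Nr4a2 differed by line. It had 4.54 and 6.53 CPM with zymosan in JUNB-labelled cells, against 75.0 and 75.9 CPM in WT set 1 (-3.75 ± 0.09), and 46.3 and 43.1 CPM in RELB-labelled cells, against 23.3 and 22.8 CPM in WT set 2 (0.96 ± 0.08). Nr4a3 had 402 and 419 CPM in JUNB-labelled cells, against 1678 and 1735 CPM in WT set 1 (-2.06 ± 0.03), and 812 and 781 CPM in IRF5-labelled cells, against 1375 and 1376 CPM in WT set 2 (-0.79 ± 0.02). It was not called in CEBPB-labelled cells (0.06 ± 0.03, edgeR adjusted p = 0.1), where scaling to total counts gave a called -0.52. In RELB-labelled cells the difference of -0.11 ± 0.02 was not called with RLE scaling or DESeq2 (-0.04 each), without RELB zymosan replicate 1 (-0.04) or without WT set 2 zymosan replicate 2 (-0.05). Nr4a1 lay between -0.41 ± 0.02 in RELB-labelled and 0.30 ± 0.02 in IRF5-labelled cells. Egr1 was lower in CEBPB-labelled cells, with 191.5 and 180.1 CPM, against 321 and 332 CPM in WT set 1 (-0.81 ± 0.04), and higher in the other lines (0.52 ± 0.04, 0.32 ± 0.03 and 0.35 ± 0.03 in JUNB-, IRF5- and RELB-labelled cells), though 0.00 in JUNB-labelled cells with total counts. Egr2 had 42.4 and 42.7 CPM in JUNB-labelled cells, against 136 and 140.0 CPM in WT set 1 (-1.70 ± 0.05).

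Small differences in CEBPB-labelled cells depended on the scaling and the fit. Those of Egr2 (0.14 ± 0.05), Nr4a2 (0.17 ± 0.06) and Nr4a1 (0.16 ± 0.03) were -0.44, -0.41 and -0.42 with total counts, and were 0.05, 0.08 and 0.07 and not called when only the compared groups were fitted. That of Ier2 (0.39 ± 0.04) was -0.19 with total counts. Egr2 and Nr4a2 were also not called with DESeq2 or without the filter on low counts, without CEBPB zymosan replicate 1 (0.11 and 0.10) or without WT set 1 zymosan replicate 1 (0.11 and 0.15), and Nr4a2 without WT set 1 zymosan replicate 2 (0.17). In IRF5-labelled cells Egr2 (-0.13 ± 0.05) was not called with RLE scaling (-0.07), with DESeq2 (-0.08) or without any single zymosan library of the comparison (-0.12 to -0.09). Ier2 in IRF5-labelled cells was not called in the fit with TMM scaling (0.05 ± 0.02, edgeR adjusted p = 0.0931), was called at 0.10 with RLE scaling or DESeq2 and at 0.09 without IRF5 zymosan replicate 2 or WT set 2 zymosan replicate 1, and was -0.13 with total counts. Over all genes, the calls with total counts were 1800 higher and 7828 lower in CEBPB-labelled, 2829 and 7328 in JUNB-labelled and 2744 and 5675 in IRF5-labelled cells, beside 4515 and 4248, 5040 and 4829, and 4082 and 4245 with TMM scaling.

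The ratio of the highest to the lowest line mean within a set, WT included, was smaller with zymosan than with DMSO for all 8 members in both sets. The share of all genes with a smaller ratio is not given here, so this is not read as particular to the members. In set 1 the highest line mean of Nr4a1 was 18.4 times the lowest with DMSO and 1.46 times with zymosan, and that of Egr3 was 60 times with DMSO and 1.53 times with zymosan. In set 2 the ratio of Egr1 was 15.2 with DMSO and 1.28 with zymosan, and that of Nr4a3 was 16.9 with DMSO and 1.73 with zymosan. Btg2 had ratios of 6.80 in set 1 and 3.05 in set 2 with zymosan, beside 237 and 6.36 with DMSO. Nr4a2 had a ratio of 15.3 with zymosan in set 1, beside 23.4 with DMSO, where the mean in JUNB-labelled cells rests on 3 counts. Nr4a3 and Egr2 had ratios of 4.34 and 3.57 with zymosan in set 1. Ier2 had ratios between 1.42 and 1.75 in both sets and treatments.

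The change with zymosan within each line was larger in every tested line than in WT for nearly all members. Such a change is the zymosan level over the DMSO level, and the members' DMSO levels were mostly below WT. With zymosan, 15 of 32 differences from WT were higher and 15 lower, so a larger change does not mean a higher level with zymosan. All 8 members rose in CEBPB-labelled (background 35.1%), JUNB-labelled (36.5%), IRF5-labelled (34.3%) and RELB-labelled cells (35.2%). In CEBPB-labelled cells the log2 change was 11.42 ± 0.07 for Nr4a3, 9.64 ± 0.17 for Nr4a2, 8.86 ± 0.06 for Nr4a1 and 6.63 ± 0.09 for Btg2, and that of Ier2 was 0.42 ± 0.04, or -0.51 with total counts. In JUNB-labelled cells 16825 read pairs of Nr4a3 with zymosan stood against 1 with DMSO, and 230 of Nr4a2 against 3, which gave ratios of 23335 (95% counting interval 4188 to 921734) and 106 (35.9 to 519) after scaling. Egr1 rose by 5.00 ± 0.05 in JUNB-labelled, 5.29 ± 0.05 in IRF5-labelled and 4.45 ± 0.05 in RELB-labelled cells, far more than in WT. Tested as interactions, 31 of 32 differences in response from WT were called, all of them higher in the line. The background of genes with a higher response was 24.4% in CEBPB-labelled, 28.1% in JUNB-labelled, 16.5% in IRF5-labelled and 16.1% in RELB-labelled cells. The exception was Nr4a2 in JUNB-labelled cells (0.66 ± 0.69, edgeR adjusted p = 0.479), and with total counts Ier2 in CEBPB-labelled cells was not called either (0.11). With total counts the calls over all genes were 2015 higher and 3852 lower in CEBPB-labelled and 1863 and 2899 in IRF5-labelled cells, beside 3142 and 2152, and 2272 and 2311, with TMM scaling.

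Across the 12 libraries of each set, the members' log2(CPM + 1) values ran in parallel, as libraries share their treatment and line. Among the pairs, Nr4a1 and Nr4a3 had Pearson r = 0.993 in set 1 and 0.985 in set 2, and Nr4a2 and Ier2 had 0.531 and 0.888. The genes most like a member in both sets, of 7767 compared, were Chka, Cxcl2 and Olr1 for Nr4a1 (r of 0.996 to 0.999 in set 1), Txnrd1, Nbn and Cxcl2 for Nr4a3, Traf3, Icam1 and Olr1 for Egr3, Lacc1, Ifi207 and Clec4n for Egr2, and Chml, Smpdl3b and Jam2 for Btg2. Cxcl2 encodes a neutrophil-attracting chemokine and Icam1 an adhesion receptor. For Egr1, Nr4a2 and Ier2 they were Ikbke, Prdm1 and Pmaip1 among others. These are descriptions over libraries that share treatments.

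In the sorted tissue neutrophils the members were detected unevenly, and by edgeR no difference of a member between tissues passed the test. Tissue libraries held 9.24 to 19.11 M counted read pairs, and ER-Hoxb8 libraries 19.37 to 34.26 M. The tissue libraries spread widely, with a biological coefficient of variation of 1.86, beside 0.0278 in set 1. At that spread the same test found 0% of simulated 8-fold changes between exudate and blood. The 8 neutrophil markers were present in all tissues, with a summed level of 84800 CPM in the lowest exudate library and 343000 CPM in the highest.

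**Figure D4:**
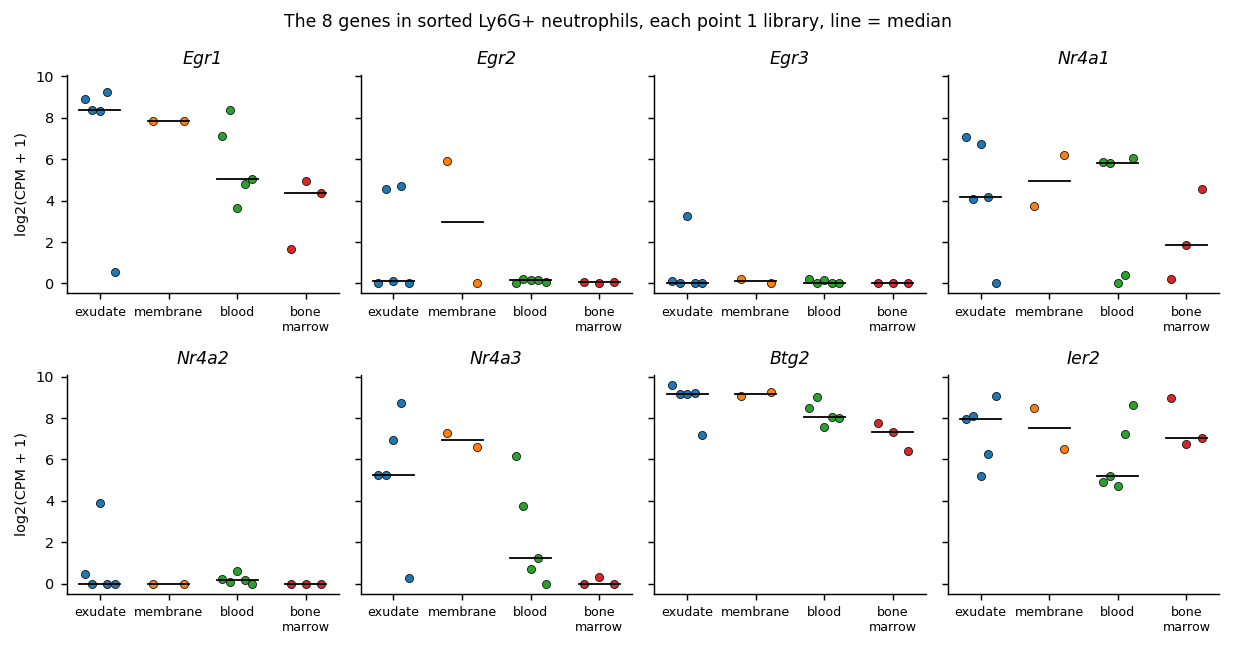
CPM of each member in every tissue library on a log2(CPM + 1) axis, exudate and membrane left of blood and bone marrow, with 5, 2, 5 and 3 libraries. Btg2 and Egr1 are high in most pouch libraries, Nr4a3 is highest in an exudate library and also high in 1 blood library, and Egr2, Egr3 and Nr4a2 are at or near 0 in most libraries.

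Nr4a3 had 37.0, 36.5, 121, 423 and 0.230 CPM in the exudate and 152 and 94.6 CPM in the membrane, against 72.0, 12.4, 0.655, 1.38 and 0 CPM in blood and 0, 0.265 and 0 CPM in bone marrow. It was high in 4 of 5 exudate libraries and both membrane libraries, and nearly absent from bone marrow. The read pairs summed over libraries were 7138 in the exudate, against 3 in bone marrow, a ratio of 2059 with a 95% counting interval of 704 to 9985 that covers counting error only. This gave the lowest adjusted p of the set (0.102 by edgeR), and without exudate library 5 it was 0.0491. With the tag and number of the headers as a replicate block, Nr4a3 was called in exudate against bone marrow (log2 difference 10.71, edgeR adjusted p = 0.0119) and in membrane against bone marrow (13.89, edgeR adjusted p = 0.0289), though the labels do not say that equal numbers mark 1 mouse. Nr4a1 had 134, 15.7, 105, 17.3 and 0 CPM in the exudate and 12.2 and 72.7 CPM in the membrane, against 57.5, 54.9, 0, 0.345 and 65.1 CPM in blood and 0.172, 2.56 and 22.6 CPM in bone marrow. Its range in the exudate overlapped that of every other tissue. Nr4a2 had 14 CPM in exudate library 3, 0.396 CPM in library 1 and 0 in the others and in both membrane libraries, against at most 0.536 CPM in blood and 0 in bone marrow.

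Egr1 had 475, 327, 318, 613 and 0.459 CPM in the exudate and 228.0 and 228.0 CPM in the membrane, against 140, 327, 11.3, 27.2 and 32.2 CPM in blood and 2.15, 29.3 and 19.6 CPM in bone marrow. It was high in 4 of 5 exudate libraries and near 0 in the fifth. Egr2 had 0, 22.4, 0.0784, 25.2 and 0 CPM in the exudate and 59.3 and 0 CPM in the membrane, against at most 0.143 CPM in blood and 0.0572 CPM in bone marrow. It was thus high in some pouch libraries and near 0 elsewhere. Egr3 had 8.47 CPM in exudate library 3 and at most 0.099 CPM in the others.

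Btg2 had 778, 568.4, 567, 598 and 142 CPM in the exudate and 527 and 601 CPM in the membrane, against 352, 521, 192, 267 and 254.5 CPM in blood and 215, 162 and 84.7 CPM in bone marrow. Ier2 had 243, 277, 35.4, 75.2 and 537 CPM in the exudate and 360 and 90.4 CPM in the membrane, against 28.8, 35.3, 25.0, 147 and 396 CPM in blood and 502, 108 and 132 CPM in bone marrow. Exudate library 5 had the lowest Egr1, Nr4a1, Nr4a3 and Btg2 of its group and the highest Ier2. That library also stood apart in a mean over well-counted genes. Its counts differed from those of each other exudate library by a mean chi-square per gene of 2760 to 3290, beside 495 to 1100 between the others. This mean grows with the counts, so the most abundant genes weigh most, and this library was the deepest of the tissues (19.11 M read pairs). It does not show how many genes differed. Per length, Btg2 had the highest level of the members in the exudate (193 ± 85.3 RPKM, n = 5), the membrane (206 ± 19.2 RPKM, n = 2) and blood (116 ± 46.5 RPKM, n = 5), and Ier2 had the highest in bone marrow (162 ± 145 RPKM, SD, n = 3). The order of the top members did not stand apart from these SDs.

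By edgeR, 0 of 7 tested members were called in any of the 6 tissue comparisons. The backgrounds were 0% in exudate against blood, 0.178% in exudate against bone marrow, 0% in membrane against blood, 0.0162% in membrane against bone marrow, 0.0162% in blood against bone marrow and 0% in exudate against membrane. At an unadjusted p under 0.05 by edgeR the counts were 1, 5, 1, 4, 1 and 0 members in that order. Over all 12330 tested genes they were 2349, 2848, 963, 1637, 1438 and 1014. DESeq2 called 1, 2, 1, 2, 1 and 0, namely Egr2 in the exudate and the membrane against blood, Egr2 and Nr4a3 in both against bone marrow, and Nr4a3 in blood against bone marrow. The share of all genes that DESeq2 called is not given here. The fitted log2 differences of exudate over blood were 2.84 for Nr4a3, 1.69 for Egr1, 0.89 for Ier2, 0.74 for Btg2 and 0.61 for Nr4a1, beside a median of -0.351 over all genes. Those of Egr2 and Nr4a2 rest on a few exudate libraries and are left out. With only the compared groups fitted, 5 members passed the filter. Libraries did not overlap for Btg2 and Nr4a3 in membrane against blood (background 5.11%), and for Btg2, Egr1 and Nr4a3 in membrane against bone marrow (background 12.9%), in each case with the membrane higher.

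The comparisons were also made by header tag. With the tag as a term, or within either tag, 0 members were called by edgeR, where at an unadjusted p under 0.05 the counts lay between 0 and 4 per comparison. The log2 difference of Nr4a3 in exudate over blood was 0.27 within tag 100 and 7.89 within tag 300, and that of Egr1 was 1.23 and 3.20. In exudate over bone marrow, within tag 100, Nr4a3 had 8.63 and Egr1 4.48. In membrane over blood, within tag 300, Nr4a3 had 7.33, Egr1 2.75 and Btg2 0.93. Membrane against bone marrow has no value within a tag, and with the tag as a term it was 11.93 for Nr4a3, 5.14 for Egr1 and 2.41 for Btg2. These fits were chosen after the data were seen, and shares over all genes are not given for them.

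Markers of other cells moved with the tissue. The sum of 9 monocyte and macrophage markers was 663 to 954 CPM in the exudate and 735 to 982 CPM in the membrane, against 111 to 719 CPM in blood and 3.96 to 156 CPM in bone marrow. It was mostly Cd68, with C1qa, Ccr2 and Cx3cr1 at 0 in the membrane. The sum of 6 dendritic cell markers was 1.3 to 313 CPM in the exudate and 121 to 249 CPM in the membrane, against 1.38 to 47.4 CPM in blood and 0.171 to 68.8 CPM in bone marrow. Their part in the members' levels was not tested. The cells had been sorted as Ly6G+ for chromatin and as neutrophils for RNA.

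Accessible chromatin near the members was read from the authors' merged sites (mm10) and their deposited lists of sites that differed between tissues. Within 50000 bp of the 8 starts lay 87 of 47164 merged sites, 19 near Egr3, 15 each near Nr4a1 and Btg2, 13 near Ier2, 9 each near Egr1 and Egr2, 4 near Nr4a3 and 3 near Nr4a2, with none shared. The authors' deposited lists held 12 of the 87. In exudate against blood 3 of the 87 were more and 2 less accessible (backgrounds 6.01% and 2.3% of merged sites), and in exudate against bone marrow 8 and 1 (9.93% and 4.72%). In membrane against blood 4 were more and 1 less accessible (4.72% and 1.92%), in membrane against bone marrow 7 and 1 (8.6% and 4.55%), and in blood against bone marrow 0 and 0 (1.19% and 0.812%). As shares of the 87 these were 3.45% and 2.30%, 9.20% and 1.15%, 4.60% and 1.15%, 8.05% and 1.15%, and 0% for both.

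Sites that spanned the starts of Egr1, Nr4a1, Nr4a2, Nr4a3, Btg2 and Ier2, the promoter sequences given for Btg2, Nr4a2, Nr4a3 and Nr4a1 among them, were in none of the deposited lists. The listed sites lay elsewhere. In Egr3 a site at -329 bp from the start, chr14:70076568-70077116, was more accessible in the exudate and the membrane than in blood and bone marrow, with -log10 adjusted p of 4.76, 5.42, 6.24 and 7.06 in the authors' deposited tables (exudate against blood, exudate against bone marrow, membrane against blood, membrane against bone marrow). In Nr4a3 an intronic site 1795 bp downstream of the start, chr4:48046948-48047492, was more accessible in the same 4 comparisons, with values of 5.26, 9.12, 1.56 and 3.8 in the authors' deposited tables. A site 13285 bp past the start of Btg2, chr1:134065052-134065835, which the authors assigned to Fmod, was more accessible in all 4 with values of 16, 11, 17 and 11.9 in the authors' deposited tables. The Egr2 site holding the printed CArG box was in no list, while an intronic site 1113 bp past its annotated start, chr10:67536588-67537152, was more accessible in membrane against bone marrow (4.03 in the authors' deposited table).

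Less accessible sites were few. A site 26140 bp past the start of Egr1, chr18:34885963-34886468, was less accessible in exudate against blood (5.99), exudate against bone marrow (8) and membrane against bone marrow (3.32) in the authors' deposited tables. A site at -22384 bp from the start of Nr4a1, which the authors assigned to Grasp, was less accessible in exudate and membrane than in blood (2.61 and 1.82 in the authors' deposited tables). The other listed sites were all more accessible in exudate or membrane than in blood or bone marrow. Those near Egr2 were assigned by the authors to Nrbf2, 1 near Egr3 to Pebp4 and 1 near Ier2 to Lyl1. A site 13482 bp past the start of Egr3, chr14:70090927-70091426, was assigned to Egr3. It was more accessible in exudate and membrane than in bone marrow (2.51 and 2.69 in the authors' deposited tables). No site near Nr4a2 was listed.

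**Figure D5:**
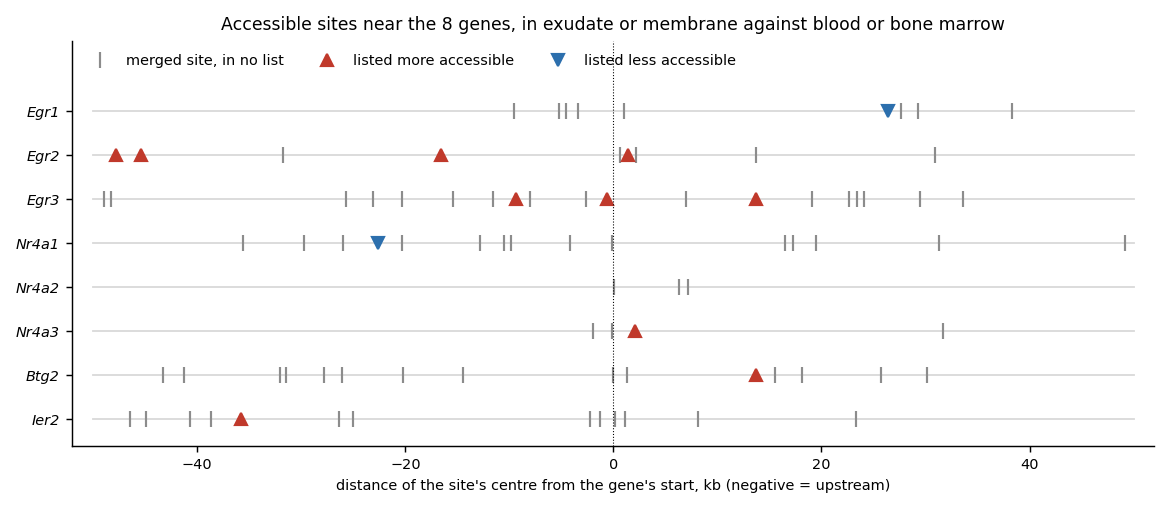
Accessible merged sites by distance from each member's start in kb, with grey ticks for sites in no list and triangles for sites in the authors' lists (up, more accessible in pouch cells; down, less accessible). Listed sites lie 329 bp upstream of the Egr3 start, 1795 bp downstream of the Nr4a3 start and 1113 bp past the annotated Egr2 start, while the sites that span the starts of Egr1, Nr4a1, Nr4a2, Nr4a3, Btg2 and Ier2 are not listed.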

How the data were processed

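RNA was measured in 15 tissue libraries and 28 ER-Hoxb8 libraries. The deposited tables hold counts, raw read pairs per gene, per the file headers made with featureCounts v1.5.0-p2 without regard to strand (tissues) and v1.6.3 as reverse stranded (ER-Hoxb8), at a mapping quality of 255. Without strand, reads of a gene and an antisense partner cannot be told apart in the tissues. Per the submitters' processing notes, which give no versions here, STAR, cutadapt, Bowtie2, MACS2 and DESeq2 were used, with GRCm38 (mm10). In the authors' deposited lists of differing sites each value is a neg_log10_p (-log10 of an adjusted p). In the authors' file of merged sites each has a score, whose scale is not stated, a width and how many peaks were merged (other). The merged sites come from all libraries together.

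The tests used the quasi-likelihood method of edgeR 4.0.16 with TMM scaling (limma 3.58.1, R 4.3.3), 1 fit per table over all its groups, with p-values adjusted by Benjamini-Hochberg over 12330 (tissues), 12899 (set 1), 13779 (set 2), 13608 (later table with the RUNX1- and KLF6-labelled cells) and 13804 genes (both WT pairs). filterByExpr used a minimum count of 10, a total of 15 and a share of 0.7. SE is the log2 change over the root of the F statistic. CPM and RPKM were computed from the counts with TMM-scaled library sizes, so the same WT libraries have other CPM in the later table. Libraries were unpaired. Of the columns, 18 in set 1 and 10 in the later table were not used. Symbols matched 50376 of 50600 IDs (99.6%), and RefSeq promoters matched 5 of 8 members. Intervals of low counts are exact at 95% and floors use 3 counts over the group, for counting error only. Tested on simulated data, edgeR found 100% of 2-fold changes for zymosan in WT set 1 (12327 genes, 12 false calls). Each member was reported, list genes were named by the largest called changes, up to 4 per list and WT comparison, and the members and lists were chosen with earlier results of these data known.

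Alternatives were RLE and total-count scaling, DESeq2 1.42.0, no filter, leaving out each library in turn, a replicate block, a fit of only the compared groups, and other site distances and thresholds. Those for the comparison of the WT sets, and the tag in the tissue headers as a term and within each tag, were added after the data were seen.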

Additional observations from a re-analysis of the deposited data

Results flagged for a closer look

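Single tissue libraries stood apart from their group by Dixon's criterion in 4 of 16 sets tested. Each set was 1 member in a tissue with 5 libraries, and in all 4 the highest library stood apart. The criterion flags about 1 in 20 groups by chance only if values are independent and normally distributed. CPM values here were skewed, and members shared the same libraries, so the 4 flags cannot be compared with that rate. Nr4a3 had 423 CPM in exudate library 4 and 72.0 CPM in blood library 1. Exudate library 3 held the highest Nr4a2 (14 CPM) and Egr3 (8.47 CPM).

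The zymosan response differed from that of WT, by an interaction test in edgeR, for 31 of 32 members and lines, and between the WT sets for 7 of 8 members, 38 differences in all. A response is the zymosan level over the DMSO level, so the mostly low DMSO levels of the lines enter it. In CEBPB-labelled minus WT cells the log2 difference in response was 5.11 for Btg2, 4.5 for Nr4a3, 3.69 for Nr4a2, 3.66 for Nr4a1, 3.39 for Egr3, 1.41 for Egr2, 1.14 for Egr1 and 0.34 for Ier2. In JUNB-labelled minus WT cells it was 6.51 for Egr3, 4.77 for Egr1, 4.69 for Btg2, 3.81 for Nr4a1, 2.71 for Egr2 and 1.27 for Ier2, and the fitted 7.25 for Nr4a3 rests on 1 count with DMSO and is no bound. In IRF5-labelled minus WT cells it was 4.24 for Egr1, 3.91 for Nr4a2, 3.77 for Egr3, 3.29 for Nr4a3, 2.85 for Nr4a1, 1.93 for Egr2, 1.76 for Btg2 and 0.56 for Ier2. In RELB-labelled minus WT cells it was 3.40 for Egr1, 3.32 for Egr3, 3.04 for Nr4a2, 2.68 for Egr2, 2.35 for Nr4a3, 2.20 for Nr4a1, 1.06 for Btg2 and 0.35 for Ier2.

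Between the sets, WT set 1 minus WT set 2, the differences were 3.18 for Nr4a2, 1.82 for Nr4a1, 1.27 for Nr4a3, 0.50 for Egr3 and 0.19 for Btg2, and -0.95 for Ier2 and -0.68 for Egr1.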

How the results depend on the processing

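Of the members' results with zymosan, 473 of the values under alternatives kept direction and side of the threshold, 4 lost the call and 3 turned. For lines against WT these numbers were 756, 30 and 9, with 5 gained, and for interactions 447, 1 and 0. With total counts the log2 change with zymosan was -0.47 for Egr1 and -0.62 for Ier2 in WT set 1, and -0.51 for Ier2 in CEBPB-labelled cells. CEBPB-labelled over WT was -0.30 for Ier2 with DMSO, and with zymosan -0.44 for Egr2, -0.18 for Egr3, -0.42 for Nr4a1, -0.41 for Nr4a2, -0.52 for Nr4a3 and -0.19 for Ier2. IRF5-labelled over WT with zymosan was -0.13 for Ier2, and exudate over membrane -0.08 for Ier2. With only the compared groups Nr4a3 in CEBPB-labelled over WT with zymosan was -0.03, and 4 members were called there in place of 7. The cause of these shifts was not tested.

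Between tissues, DESeq2 called 1 member in exudate against blood, 2 in exudate against bone marrow, 1 in membrane against blood, 2 in membrane against bone marrow and 1 in blood against bone marrow. Without a filter 1 was called in exudate and 1 in membrane against bone marrow. Shares over all genes are not given for DESeq2 or for the fit without a filter. Leaving out 1 library in turn gave 0 to 1 in exudate against bone marrow. Over those fits the log2 difference ranged from -3.49 to 9.33 (Egr2, membrane against blood), -2.34 to 10.47 (Egr2, membrane against bone marrow), -2.68 to 10.14 (Egr2, exudate against membrane), -0.27 to 0.12 (Btg2, exudate against membrane), -0.05 to 0.95 (Nr4a1, exudate against blood), -0.45 to 2.02 (Nr4a1, exudate against membrane) and -1.47 to 1.00 (Nr4a1, membrane against blood). For Ier2 it ranged from -0.68 to 0.96 (exudate against bone marrow), -0.67 to 1.43 (exudate against membrane), -0.52 to 1.92 (membrane against blood), -1.51 to 0.91 (membrane against bone marrow) and -2.06 to 0.07 (blood against bone marrow). For Egr2 between the WT sets it ranged from -0.06 to 0.08.

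The labels do not say that equal numbers mark 1 culture or mouse, and no pair's correlation was above 0.1, so libraries were left unpaired. Same-numbered libraries had correlations of -0.037 to 0.094 in set 1, -0.028 to 0.041 in set 2, -0.038 to 0.034 in the later table and -0.042 to 0.1 between tissues, where the header's tag and number were used. With a replicate block 1 member, Nr4a3, was called in exudate and in membrane against bone marrow, 7 of 8 with zymosan in WT set 1, and all counts in other comparisons were within 1.5 times. The block turned 3 tissue values, Nr4a2 in exudate against blood (-1.32), Egr2 in blood against bone marrow (-0.01) and Egr2 in exudate against membrane (0.06). Within header tag 100 Ier2 turned in exudate against bone marrow (0.09), and within tag 300 in exudate against blood (-0.81), membrane against blood (-0.49) and exudate against membrane (-0.32), as did Nr4a1 in exudate against membrane (-0.07).

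Within 10000 bp of a start, 0 less accessible sites were listed in each of the exudate and membrane comparisons with blood or bone marrow, and 2 and 3 more accessible ones in exudate and membrane against bone marrow. Within 100000 bp, 5 more accessible sites were listed in exudate against blood, 7 in membrane against blood and 11 in membrane against bone marrow, and 3 less accessible ones in exudate against bone marrow. At an adjusted p under 0.01, 0 less accessible sites were listed in membrane against blood. Tissue values are limited by the spread between libraries, and Nr4a2 and Nr4a3 in JUNB-labelled cells with DMSO by counts of 3 and 1.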
